A study of Mus musculus with 2 samples.

Results

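Mouse chromosome 15 held 3733 of the 50887 regions in which a macroH2A1.1 chromatin immunoprecipitation (ChIP) library exceeded its input library in C2C12 cells. Its members are all regions of the deposited list that lie on this chromosome in the mouse genome build mm9, so that membership follows from position alone, although the chromosome was picked for description with earlier results of these data known. C2C12 is an established line of mouse myoblasts, the precursor cells that fuse into multinucleated myotubes in low serum. The ChIP group held 1 library, made with an antibody against macroH2A1.1, and the input group held 1 library made without antibody, both from cells labelled wild type. The labels name myoblasts as the source of both libraries, whereas their short descriptions contain DM, the abbreviation of the differentiation medium, and the study describes the profile as that of myotubes. With 1 library in each group, no difference below has a replicate check, regions are not replicates, and chromosomes were compared as descriptions without a test. All intervals cover counting error, or the spread over regions for a median, and nothing else.

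MacroH2A1 is a histone variant that replaces H2A in part of the nucleosomes and carries a large globular macro domain outside of the nucleosome core. Alternative splicing gives rise to macroH2A1.1, whose macro domain binds ADP-ribose metabolites, and to macroH2A1.2, which does not bind them. MacroH2A variants are known to form broad domains over transcriptionally inactive chromatin and are abundant on the inactive X chromosome, and macroH2A1.1 becomes more abundant when muscle cells differentiate. Input reads come from unselected chromatin and follow the amount of a sequence in the cells and how well it was recovered and aligned.

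The regions of chromosome 15 were numerous, close together and weakly enriched. Together they covered 20.3 Mb, or 19.7% of the chromosome up to the end of its last region, against 8.51% for the other 18 autosomes pooled. The covered share was thus 2.31 times that of the pooled autosomes, and among the single autosomes the values ran from 2.62% on chromosome 7 to 12.2% on chromosome 13. Chromosome 15 made up 3.93% of the summed chromosome lengths, 7.34% of the regions, 8.92% of the covered bases, 9.52% of the ChIP reads and 10.7% of the input reads in the list. There were 36.1 regions per Mb on chromosome 15 and 19.2 per Mb on the pooled autosomes.

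The single regions were also wider. Their median width was 4000 bp (95% exact interval of the median 3800 to 4000), with quartiles at 2600 and 6400 bp, whereas the median elsewhere on the autosomes was 3400 bp with quartiles at 2600 and 5200 bp. No other autosome had a median above 3600 bp. A region of chromosome 15 contained a median of 83 ChIP reads and 31 input reads, against 68 and 22 on the pooled autosomes. The enrichment of a region, which is the ratio of ChIP to input reads divided by a library factor of 1.45, had a median of 1.92-fold (95% exact interval 1.90 to 1.94). This was the lowest median of the 19 autosomes, and the pooled autosomes had a median of 2.24-fold (2.23 to 2.25). An enrichment of 2-fold or more was reached by 1645 regions (44.1%), compared with 61.3% in the whole list. An enrichment of 4-fold or more was reached by 111 regions (2.97%), compared with 8.34% in the whole list, while 729 regions (19.5%) stayed under 1.5-fold, compared with 11.3%. The shares at 2-fold and at 4-fold were the lowest of the 19 autosomes, and the share under 1.5-fold was exceeded on chromosome 8, at 20.2%.

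It was then described how covered and empty stretches alternate. In bins of 1 Mb, 13 of the 104 bins of chromosome 15 had no covered base. Of these, 3 lay before the first region, which started at 3147201, close to the earliest start of any region in the list, at 3007001. Mouse chromosomes have their centromere at this end and its sequence is missing from the assembly. The other bins without a region fell into 3 stretches, which left 4 blocks. These blocks depend on the borders of the bins. Separations of 1.43 Mb from 28234201, 1.21 Mb from 48421601 and 1.21 Mb from 86265201 lay inside blocks, because none of them emptied a whole bin. The block from 3 to 13 Mb held 451 regions and was covered at 24.2%. The block from 21 to 46 Mb held 890 regions and was covered at 17.02%, the block from 47 to 70 Mb held 1233 regions and was covered at 30.3%, and the block from 71 Mb to the end held 1159 regions and was covered at 20.7%. The median enrichment of the blocks differed little, between 1.87-fold and 1.94-fold. On the pooled autosomes 20.5% of the bins were empty, against 12.5% here. The share was lower still on chromosomes 19 (9.84%), 9 (10.5%), 11 (10.7%) and 13 (12.4%). At the other end of the scale, 28 bins (26.9%) of chromosome 15 were covered at 30% or more, against 4.60% of the bins of the pooled autosomes, and on chromosome 8, the next highest, it was 12.9%.

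**Figure D1:**
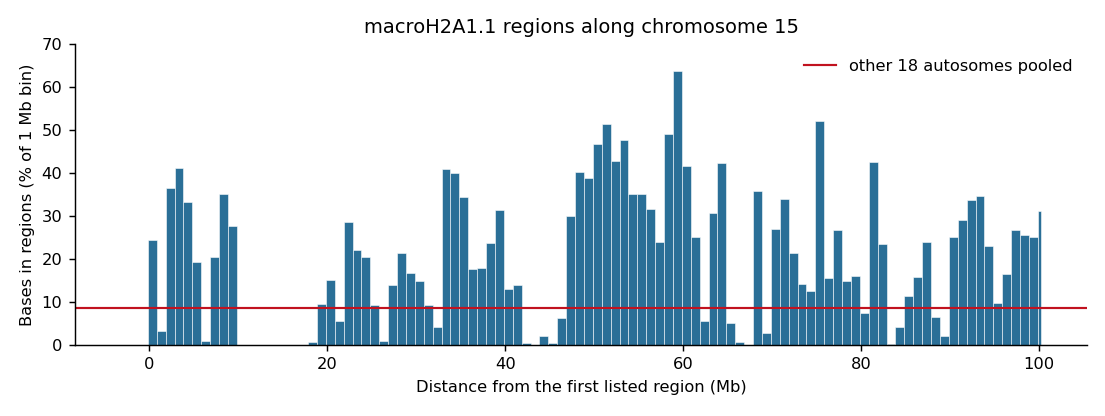
Share of bases in macroH2A1.1 regions in each 1 Mb bin of chromosome 15 (bars, percent), plotted against the distance from the first listed region in Mb, with the pooled share of the other 18 autosomes as a line at 8.51%. Blocks with regions are separated by stretches without any, of which the longest spans 8.96 Mb, and 28 bins reach 30% or more.

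The longest stretch without a region ran from 12726201 to 21688600, over 8.96 Mb or 8.67% of the chromosome. By length it took place 5 among all separations between neighbouring regions in the list. The 5 Mb before it held 201 regions and were covered at 21.0%, and the 5 Mb after it held 187 regions and were covered at 15.7%. Its borders differed in shape, since the bins from 11 to 12 and from 12 to 13 Mb were covered at 35.1% and 27.7%, whereas the bins from 21 to 22 and from 22 to 23 Mb were covered at 0.68% and 9.4%. The next longest stretches were 45049201 to 47560000 with 2.51 Mb, 69755601 to 71294800 with 1.54 Mb, 28234201 to 29664600 with 1.43 Mb, and 86265201 to 87477600 with 1.21 Mb. Of the 10 regions that bordered these 5 stretches, 7 were enriched less than 2-fold, compared with 55.9% of all regions of the chromosome, and the strongest of them, which followed the stretch ending at 87477600, reached 3.22-fold. Apart from the longest, such stretches were rare. Only 6 separations on chromosome 15 exceeded 1 Mb, and they made up 16.3% of its length, the lowest share of the 19 autosomes, compared with 32.1% on the pooled autosomes. Stretches without a region are stretches without a call at this read depth, and absence of macroH2A1.1 cannot be read from them.

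Within the blocks, regions followed each other closely. The median separation of neighbours was 3600 bp, with quartiles at 1200 and 10600 bp, against 5600 bp with quartiles at 1600 and 18200 bp on the pooled autosomes. The shortest separation that the caller leaves, 800 bp, was found in 15.4% of the cases on chromosome 15 and in 10.3% on the pooled autosomes. In bins of 100 kb counted from the first region, 66.2% of the bins of chromosome 15 touched a region, against 45.5%. Runs of consecutive bins with a region had a median length of 0.5 Mb and reached 4.8 Mb, against a median of 0.2 Mb and a longest run of 4.3 Mb on all other autosomes. The state changed between neighbouring bins 19.3 times per 100 bins on chromosome 15 and 22.7 times on the pooled autosomes. In bins of 1 Mb the median run was 24 Mb on chromosome 15 and 6 Mb elsewhere, but the longest was 33 Mb against 52 Mb. The covered shares of adjacent 1 Mb bins were related to a similar extent on both (Spearman rho 0.544 over 99 pairs and 0.545 over 2272 pairs). For bins 5 Mb apart rho was 0.267 on chromosome 15 and 0.0996 elsewhere, and for bins 10 Mb apart it was -0.0759 and 0.0917. These coefficients are descriptions, as bins share libraries and neighbours.

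**Figure D2:**
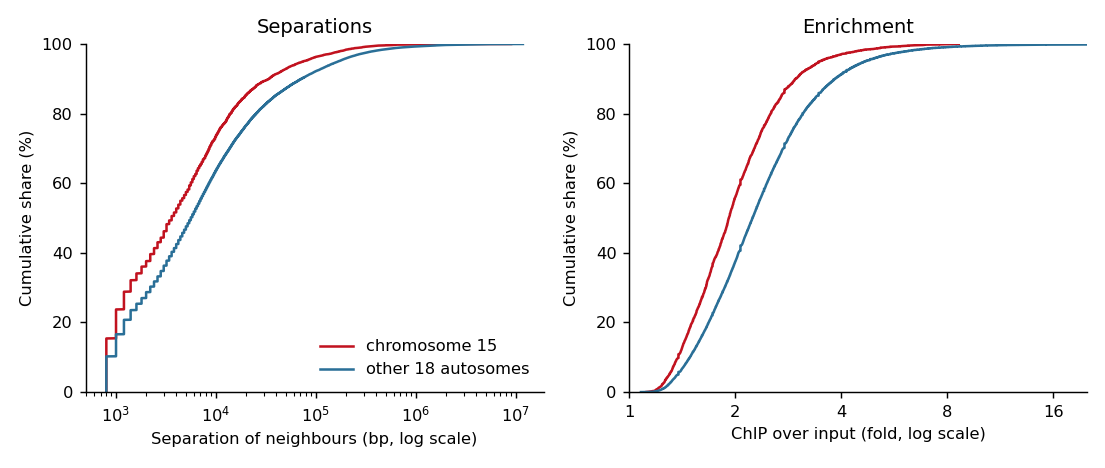
Cumulative share (percent) of the separations between neighbouring regions (left, bp on a log scale) and of the enrichment of regions (right, fold on a log scale, shown up to 20-fold) for chromosome 15 (red) and the other 18 autosomes pooled (blue). The medians are 3600 against 5600 bp and 1.92-fold against 2.24-fold, and both red curves lie to the left.

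When regions not more than 10 kb apart were joined into chains, chromosome 15 had 979 chains, of which 401 were single regions. Single regions made up 10.7% of its regions, compared with 18.4% on the pooled autosomes, and chains of 10 or more regions held 40.5%, compared with 25.3%. The longest chain extended over 490 kb from 62105201 to 62595600. It joined 52 regions that covered 72.8% of it, with 8838 ChIP reads, 3101 input reads and a pooled enrichment of 1.97-fold (95% exact interval 1.89 to 2.05). The next ran from 53183801 to 53637200 over 453 kb and joined 56 regions at 1.76-fold (1.68 to 1.84), and the third, from 52578401 to 52895400, spanned 317 kb with 38 regions at 2.06-fold (1.95 to 2.18). The interval of the second chain did not overlap those of the other two. Regions in chains of 10 or more had a median width of 4600 bp and a median enrichment of 1.95-fold (1.93 to 1.99), and single regions had a median width of 3200 bp and 1.87-fold (1.80 to 1.94). On the pooled autosomes the medians of enrichment were 2.33-fold in such chains and 2.16-fold in single regions, and thus higher than on chromosome 15 in both.

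Of the 3 bins with the most covered length, 2 lay in the block from 47 to 70 Mb and 1 in the last block. The bin from 62 to 63 Mb contained 92 regions that covered 638 kb, with a median enrichment of 1.94-fold and 8.55 input reads per kb. The bin from 78 to 79 Mb was covered over 520 kb by only 31 regions, of which 8 were wider than 20 kb, and had 11.8 input reads per kb and a median enrichment of 2.04-fold. The bin from 54 to 55 Mb was covered over 513 kb by 87 regions with a median of 2.05-fold and 8.18 input reads per kb.

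Next, it was asked whether the input was raised evenly over the whole length of chromosome 15. Its regions held 170305 input reads, which was 8.37 per kb of region, against 6.85 per kb on the pooled autosomes. The ratio was 1.22 (95% exact interval 1.217 to 1.229). The values of the single autosomes ran from 5.06 on chromosome 7 to 9.40 on chromosome 8, with a median of 6.66. In bins of 10 Mb, all 11 bins of chromosome 15 lay above the pooled value, and so did the lower limit of each bin's 95% counting interval. The bins ran from 7.84 reads per kb between 30 and 40 Mb to 9.48 between 100 Mb and the end. Of the 232 bins of the other autosomes with 20 or more regions, 55 (23.7%) were above the pooled value and 10 reached the lowest bin of chromosome 15. These 10 lay on 5 chromosomes, with 3 bins each on chromosomes 4 and 8, and on 13 chromosomes no bin came as high. With bins of 5 Mb, all 20 bins of chromosome 15 with regions were above the pooled value, compared with 26.2% of the bins elsewhere, and the bin from 15 to 20 Mb had no region and therefore no value.

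The elevation was thus found in each 10 Mb bin, but it was not of equal size everywhere, and the 13 bins of 1 Mb without a region have no input value, so that the bin from 10 to 20 Mb rests on the sequence before the longest stretch. The highest 10 Mb bin had 1.21 times the input density of the lowest, which equals the median of this ratio over the other 18 autosomes (1.21), while it was 1.11 on chromosome 13 and 2.76 on chromosome 8. On chromosome 8, 5 of 14 bins were above the pooled value, with 12.9 reads per kb between 80 and 90 Mb and 4.69 in the lowest bin. Over 4 parts of equal length, the ratio to the pooled autosomes was 1.21, 1.15, 1.19 and 1.33 from the start to the end. Among regions of 2000 to 6000 bp only, compared with regions of the same widths elsewhere, it was 1.24, 1.17, 1.21 and 1.22, and among regions of 2-fold or more it was 1.202, 1.121, 1.216 and 1.29. The last part thus had the highest ratio over all regions and in those of 2-fold or more, but not among regions of 2000 to 6000 bp. In bins of 1 Mb with 10 or more regions, 78 of 81 (96.3%) were above the pooled value, compared with 32.7% of such bins elsewhere. The 3 exceptions were the bins from 68 to 69 Mb with 6.22 (95% interval 5.55 to 6.95), from 87 to 88 Mb with 6.81 (6.03 to 7.66) and from 27 to 28 Mb with 6.83 (6.48 to 7.20), and each of these intervals includes the pooled value. A further 10 bins held 1 to 9 regions and ranged from 5.24 to 9.35 tags per kb, with 3 of them below the pooled value. The highest bin was that from 78 to 79 Mb with 11.8 (11.5 to 12.1), followed by bins between 82 and 86 Mb with 10.6, 10.2 and 10.1.

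**Figure D3:**
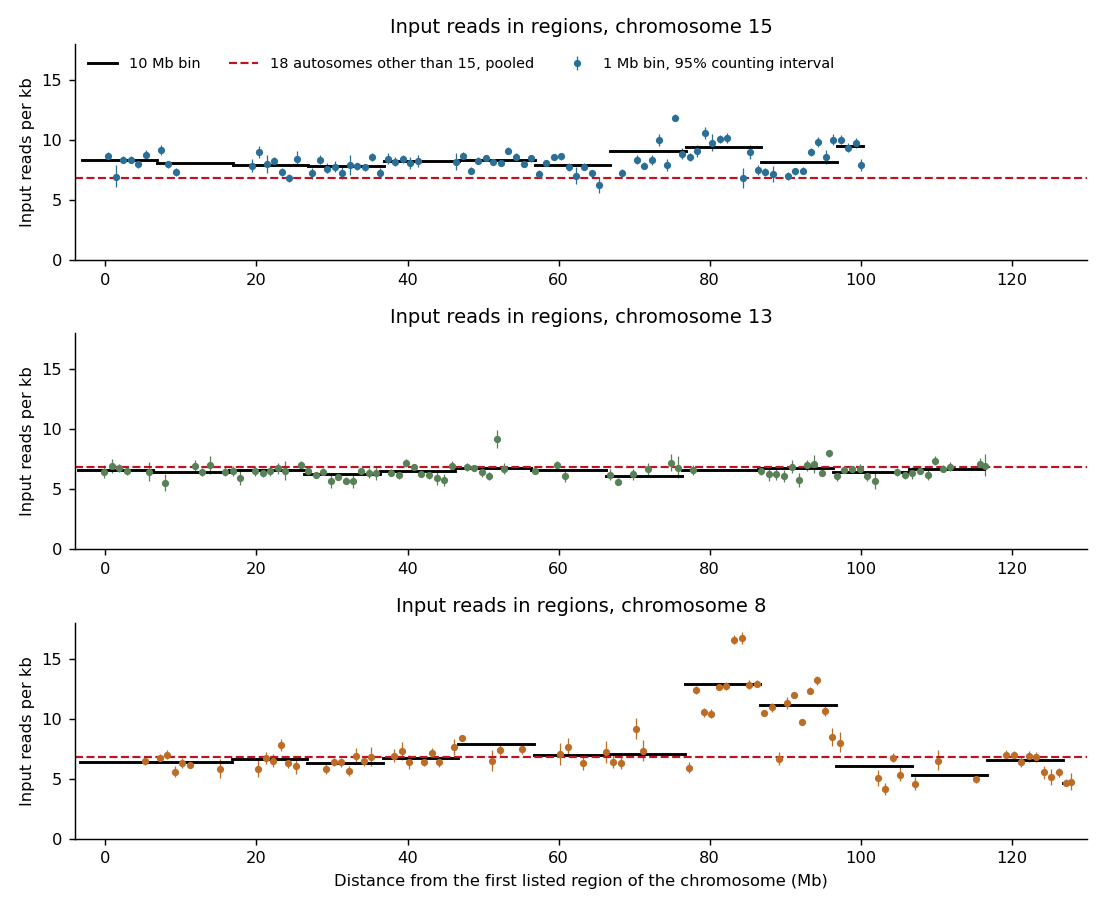
Input reads per kb of region in 1 Mb bins with 10 or more regions (points, with 95% counting intervals) and in 10 Mb bins with 20 or more regions (black lines) along chromosomes 15, 13 and 8, against the distance from the first listed region in Mb. On chromosome 15 all 11 lines lie above the pooled value of the 18 autosomes other than chromosome 15 (dashed, 6.85), and on chromosome 13 none does. On chromosome 8, 5 of 14 lines do. The highest are those of the bins between 80 and 100 Mb in chromosome coordinates, followed by the bin from 50 to 60 Mb with 7.91.

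In contrast to the input, the covered share varied strongly along the chromosome. It was 8.32% in the 10 Mb bin from 10 to 20 Mb and 39.9% in that from 50 to 60 Mb, a ratio of 4.80. The first of these bins includes most of the longest stretch without a region, and its input reads come from 10 to 13 Mb only. There the 1 Mb bins were covered at 20.4%, 35.1% and 27.7%. The input densities were close, with 8.05 (95% counting interval 7.86 to 8.24) and 8.33 (8.25 to 8.43) reads per kb, although the intervals did not overlap. Over the 81 bins of 1 Mb with 10 or more regions, the covered share and the input density had a Spearman rho of 0.175, which is a description of bins that share both libraries. The ChIP density of regions varied by a factor of 1.29 between 10 Mb bins, from 20.3 to 26.2 reads per kb, and the median enrichment from 1.69-fold between 40 and 50 Mb to 2.07-fold between 70 and 80 Mb. Strong variation of the covered share was not particular to chromosome 15. In 10 Mb bins with 20 or more regions, its relative range was narrower only on chromosomes 17 (3.50% to 15.1%) and 19 (2.83% to 12.9%). It was wider on all other autosomes, for example on chromosomes 1 (0.996% to 20.3%), 8 (2.27% to 41.2%) and 13 (2.02% to 21.2%).

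ChIP reads per kb were raised less than input reads. They were 22.9 on chromosome 15 and 21.4 on the pooled autosomes, a ratio of 1.07 (95% exact interval 1.066 to 1.073). After subtraction of the scaled input, 10.7 ChIP reads per kb remained on chromosome 15 and 11.4 on the pooled autosomes, and no other autosome was below 11.0. The input ratio remained above 1 when regions of like width were compared, from 1.083 (1.066 to 1.099) for regions of 20 kb and more to 1.215 (1.201 to 1.23) for those of 4000 to less than 6000 bp. It was smaller when regions of like enrichment were compared, with 1.05 (1.04 to 1.06) under 1.5-fold, 1.096 (1.087 to 1.104) from 1.5 to 2-fold, 1.16 (1.15 to 1.17) from 2 to 3-fold and 1.18 (1.15 to 1.21) at 3-fold and more. In these classes ChIP reads per kb were 1.04, 1.09, 1.13 and 1.12 times those of the pooled autosomes. The enrichment has the input count in its denominator and input was counted only where a region had been called, which ties these ratios to one another.

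The additional coverage of chromosome 15 lay in regions under 3-fold and was relatively greatest among the weakest. Regions under 1.5-fold covered 3.98% of it, or 3.98 times the share on the pooled autosomes, and regions from 1.5 to 2-fold covered 7.72%, or 3.23 times that share. The ratio was 1.87 for regions from 2 to 3-fold and 0.908 for regions from 3 to 4-fold. Regions of 4-fold and more covered 0.248% of chromosome 15 and 0.453% of the pooled autosomes, a ratio of 0.547. Expressed as numbers, chromosome 15 had 7.05 regions per Mb under 1.5-fold, compared with 2.05 elsewhere, and 1.07 regions per Mb of 4-fold and more, compared with 1.68. When the read counts of chromosome 15 were divided by 1.22 and the caller's Poisson test was repeated at its largest listed p-value, 3687 regions (98.8%) remained and covered 19.5% of the chromosome. The 46 regions that did not remain had a median enrichment of 1.25-fold. This covers the last step of the calling only, because windows that were never joined into a region are not in the list. The division left the enrichment and the width of each region unchanged, so most listed regions were bound to remain. How much read depth added to the covered share cannot be read from it. In an exact binomial test that lets the input count vary as well, 3207 regions (85.9%) kept a false discovery rate (FDR) of 0.05 or less, compared with 90.1% in the whole list. In the median, the 526 others were enriched 1.35-fold and held 61 ChIP reads against 30 in the input. Why the input density was higher on chromosome 15 was not tested, and its part in the covered share cannot be told apart from that of macroH2A1.1 with 1 library of each kind.

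**Figure D4:**
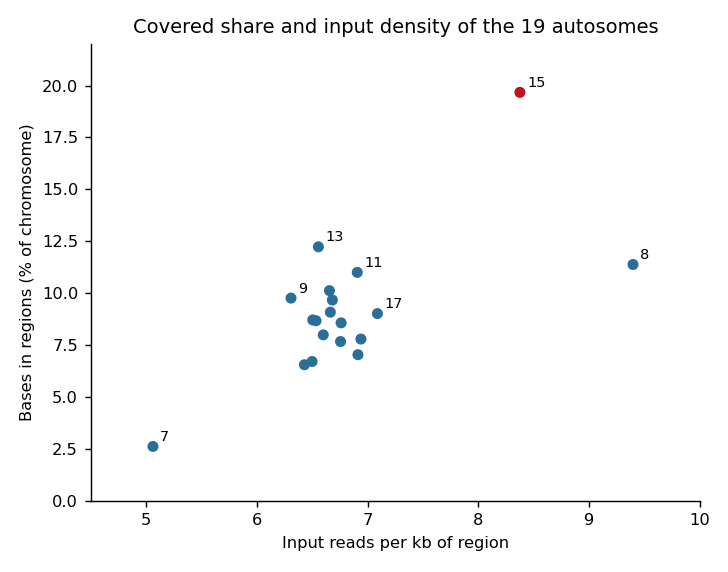
Covered share of each of the 19 autosomes (percent of the chromosome) against the input reads per kb within its regions, with some chromosomes labelled by number. Chromosome 15 (red) has the highest covered share, 19.7%, at 8.37 input reads per kb, and chromosome 8 has more input, 9.40, with a covered share of 11.4%.

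The strongest regions of chromosome 15 were short and rested on few input reads. The highest listed enrichment, 8.62-fold (95% exact interval 2.15 to 75.1), was that of a region of 1200 bp from 100728801 to 100730000, which held 25 ChIP reads and 2 input reads. It was followed by a region of 1000 bp from 53590601 to 53591600, where 36 ChIP reads and 3 input reads gave 8.28-fold (2.62 to 42.0), which lies in the chain of 56 regions. Among regions with more than 3 input reads, 2 had an enrichment of 7.76-fold (2.83 to 29.7), each 2200 bp wide with 45 ChIP reads and 4 input reads, from 27644001 to 27646200 and from 75033601 to 75035800. The former was the last region before a stretch of 310 kb without any. A region of 1600 bp from 36666201 to 36667800 and a region of 2800 bp from 75105201 to 75108000 each had 55 ChIP reads, 5 input reads and an enrichment of 7.59-fold (3.06 to 24.3). The fifth, from 25030801 to 25033400, had 44 ChIP reads, 4 input reads and 7.59-fold (2.76 to 29.1), and at 1.54 reads per kb it had the lowest input density on the chromosome. The intervals of all these regions overlapped, so that they cannot be ranked among themselves. Few input reads at the top are partly set by construction, because the input count is the denominator of the enrichment. Moreover, regions with few reads pass the caller's limit only when strongly enriched.

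The upper end of the enrichment was low on chromosome 15. Among regions with more than 3 input reads its maximum of 7.76-fold was below that of each of the other 18 autosomes, which ran from 8.08-fold to 17.2-fold with a median of 10.6-fold. No region had 0 input reads, and 6 (0.161%) had 3 or fewer, the lowest share of the 19 autosomes. The maximum and this share both depend on the input count of a region, whose median was 31 here and 22 on the pooled autosomes. They are therefore not separate traits of the chromosome. By listed enrichment, with no limit on input reads, no region of chromosome 15 ranked higher than place 339 in the list. The region at that place held 2 input reads. The 111 regions of 4-fold or more had a median width of 2000 bp, a median of 49 ChIP reads and a median of 7 input reads. Their input density of 3.86 reads per kb compared with 3.43 in regions of this strength on the pooled autosomes.

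The widest regions presented another picture, with many reads and moderate enrichment. The widest extended over 72.2 kb from 78579001 to 78651200 and had 2360 ChIP reads, 1321 input reads and an enrichment of only 1.23-fold (95% exact interval 1.15 to 1.32). With 18.3 input reads per kb its input density was more than that of the chromosome as a whole, 8.37. The next, from 78419801 to 78481600, was 61.8 kb wide and had 2192 ChIP reads, 741 input reads and 2.04-fold (1.88 to 2.22). The third lay apart, from 71672601 to 71731400, was 58.8 kb wide and had 2260 ChIP reads and 464 input reads. With 3.36-fold (3.04 to 3.72) it was enriched more strongly than the other 4 of the widest, whose intervals all ended at 2.24-fold or below, and its input density of 7.89 reads per kb was below the value of the chromosome. The remaining 2 ran from 78482401 to 78537400 over 55.0 kb with 2.04-fold (1.88 to 2.21) and from 84261401 to 84308000 over 46.6 kb with 2.03-fold (1.84 to 2.24). In the whole list these 5 regions took the places 12, 18, 19, 24 and 39 by width.

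The 3 regions between 78419801 and 78651200 belonged to 1 chain of 9 regions, and the first pair was separated by the shortest distance the caller leaves, 800 bp. In the bin from 78 to 79 Mb, the 8 regions wider than 20 kb together had 13.1 input reads and 33.8 ChIP reads per kb. Over the chromosome, 57 regions (1.53%) were wider than 20 kb, compared with 0.770% on the pooled autosomes and 3.82% on chromosome 8. Such regions made up 8.53% of the covered bases of chromosome 15, 5.54% on the pooled autosomes and 26.3% on chromosome 8. Of the 57 regions, 28 (49.1%) lay between 70 and 90 Mb, where 15.4% of all regions of the chromosome were found. The same interval held 35 (31.5%) of the 111 regions of 4-fold or more. It was delimited after the values had been seen. Regions wider than 20 kb had a median enrichment of 1.99-fold on chromosome 15, with a range from 1.21-fold to 3.41-fold, and of 2.27-fold on the pooled autosomes.

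**Figure D5:**
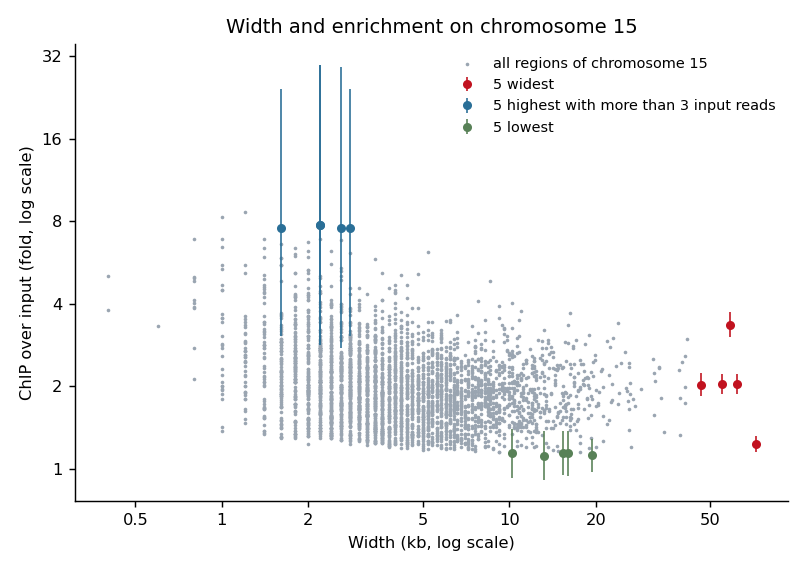
Enrichment (fold, log scale) against width (kb, log scale) of all 3733 regions of chromosome 15 (grey), with the 5 widest (red), the 5 most enriched with more than 3 input reads (blue, 2 of them at the same point) and the 5 least enriched (green) shown with 95% exact intervals. The 5 most enriched are 1.6 to 2.8 kb wide with wide intervals, and the 5 widest lie between 1.23-fold and 3.36-fold with narrow intervals.

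The weakest regions were wide as well. The 5 lowest values of enrichment, from 1.12-fold to 1.14-fold, were found in regions of 10.2 to 19.4 kb with 154 to 336 input reads. They lay at 78246801 to 78260000, 102560401 to 102579800, 50323201 to 50339200, 76816401 to 76831800 and 82043801 to 82054000. Their exact intervals all included 1, for example 0.913 to 1.37 in the first of them, and none passed an FDR of 0.05 in the exact binomial test, where the values lay between 0.0525 and 0.149. Their input densities, between 11.6 and 17.3 reads per kb, were all above the value of the chromosome. Over all regions of chromosome 15, width and enrichment had a Spearman rho of -0.219, compared with -0.236 on the pooled autosomes. The list holds only regions that passed the caller's FDR limit, so a weakly enriched region had to hold many reads to be listed. A region with few reads had to be strongly enriched, which ties width, read number and enrichment to one another by construction.

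A single region had the highest density of both libraries. It extended over 5600 bp from 8751401 to 8757000 and contained 640 ChIP reads and 167 input reads, which is 114 and 29.8 reads per kb. Its enrichment was 2.64-fold (95% exact interval 2.23 to 3.15). It was chosen once the other values were known and falls outside the rule for named regions. The last region of the chromosome, from 103381201 to 103384200, had 74 ChIP reads, 21 input reads and 2.43-fold (1.48 to 4.16), and the first, from 3147201 to 3149000, had 43 ChIP reads, 20 input reads and 1.48-fold (0.854 to 2.66).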

How the data were processed

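The ChIP and the input library were each sequenced once. According to the methods and the labels, the authors aligned reads to mm9 with Bowtie2 version 2.0.6. They called regions with SICER, whereas the list carries the name of its re-implementation epic. Starts and widths come in steps of 200 bp, and the shortest separation is 800 bp. Both values are smaller than the window and the gap that the methods state for SICER. The read counts per region were deposited without scaling. The authors' log2 fold change is ChIP over input divided by 1.45, the deposited score is the same value times 100, and the deposited p-value is a Poisson probability with the scaled input as mean, adjusted to an FDR whose largest value was 0.0499. The authors' list gives no library totals.

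Positions are 1-based in mm9. The genome at hand was GRCm38, so no gene, promoter or sequence was assigned. Chromosome lengths are the highest region ends. Covered bases were split at bin borders, and reads went to the bin of a region's midpoint. Intervals are Clopper-Pearson (fold changes, ratios), Poisson (bins) and order-statistic (medians), all 95%. The binomial test was exact, one-sided and adjusted after Benjamini-Hochberg over all regions. Named regions are, for chromosome 15, the 5 highest listed, the 5 highest with more than 3 input reads, the 5 widest and the 5 lowest, the first and the last, the 3 fullest 1 Mb bins, the 3 longest chains and the 5 longest stretches without a region. Members and rules were chosen with earlier results of these data known. Functions were tested on simulated data. SciPy 1.17.1 and pandas 2.3.3 were used.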

Additional observations from a re-analysis of the deposited data

How the results depend on the processing

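Of 46 recomputed values, 18 stayed within the interval of the reported value or within 1.5 times a count, 28 moved and none reversed. Counts, lengths and separations have no direction that could reverse. The interval for the ratio of covered shares treats steps of 200 bp as independent, so it is narrow and small shifts counted as moved. A 2-fold filter left 1645 regions, 8243.6 kb covered and a separation of 14600 bp, with a ratio of covered shares of 1.56, an input ratio of 1.21 and a median enrichment of 2.46-fold. At an FDR of 0.01 the ratio of covered shares was 2.29 and the median enrichment 1.96-fold. In the exact binomial test they were 2.255 and 2.02-fold, with an input ratio of 1.23 and a separation of 4400 bp. Joining within 10 kb left 979 regions, 23000 bp apart in the median. Bins of 500 kb gave 34 empty bins and bins of 5 Mb gave 1. The ratio of covered shares was 2.36 without chromosome 8 among the others, 2.26 against the median autosome and 2.41 without the longest stretch of each chromosome. With scaled depth it was 2.29, but that setting repeated only the last calling step on regions already listed. The input ratio was 1.26 without chromosome 8, 1.25 without chromosomes 7, 8 and 13, 1.26 against the median autosome, 1.21 for widths of 2000 to 6000 bp, 1.24 as a ratio of medians, 1.13 over classes of enrichment, and 1.15 and 1.38 in the lowest and highest 10 Mb bin. Filters remove weak regions and joining removes short separations by construction; what caused the remaining shifts was not tested. No paired analysis was possible because there was only 1 library in the ChIP and in the input group. Depth limits single regions, since a region here held a median of 83 ChIP reads and 31 input reads.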
